A study of Rattus norvegicus with 6 samples.

Results

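Agrin and the dystrophin glycoprotein complex were followed here as 8 genes, Agrn, Dag1, Dmd, Utrn, Sgca, Sgcb, Sgcd and Sspn, chosen by gene symbol from the 33565 rows of the count table. All 8 were found, each in 1 row, and all 8 passed the filter on low counts that left 15075 genes for testing. The data are RNA-seq libraries of mRNA-enriched RNA from primary heart cells of Sprague-Dawley rats at postnatal day 7, labelled as cardiomyocytes and cultured with serum. Of the 6 libraries, 3 came from cells exposed to 100 nM progesterone for 24 h and 3 from cells given vehicle for 24 h. The series title places progesterone, the coactivator YAP and cardiomyocyte proliferation together, and the comparison is progesterone against vehicle control.

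The dystrophin glycoprotein complex joins the actin cytoskeleton of a muscle cell to the extracellular matrix across the plasma membrane. Dystroglycan, made from Dag1, is its matrix receptor and binds laminin, perlecan and agrin through sugar chains. Dystrophin (Dmd) or its paralogue utrophin (Utrn) ties the dystroglycan tail to actin, and the sarcoglycans and sarcospan stabilise the assembly in the membrane. In mice, agrin has been reported to promote heart regeneration by way of dystroglycan and YAP, and the dystroglycan complex has been reported to bind Yap in cardiomyocytes.

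Sequence upstream of transcript starts is shown for 4 members, for Agrn because it moved most, for Sspn because it moved next most, and for the Utrn and Dmd pair because these paralogues moved in opposite directions. The windows are the 250 bases before a RefSeq transcript start in GRCr8, and 7 of the 8 members matched the table, with 9 windows. Capitals mark matches to GGAATG, the motif bound by the TEAD partners of YAP, or to an interferon response element (GAAA, any 2 bases, GAAA), each searched on both strands. The Agrn window is chr5:172052826-172053075, minus strand, before a start that lies 35.3% of the way along the gene, so it is not the window of the full-length transcript. The Sspn window is chr4:180627632-180627881, plus strand, before a start 15.4% along the gene. The Utrn window is chr1:9044488-9044737, minus strand, at the 5′ end of the gene. The Dmd windows are chrX:51205836-51206085 and chrX:53278763-53279012, plus strand, before starts 5.74% and 93.3% along the gene.
Agrn: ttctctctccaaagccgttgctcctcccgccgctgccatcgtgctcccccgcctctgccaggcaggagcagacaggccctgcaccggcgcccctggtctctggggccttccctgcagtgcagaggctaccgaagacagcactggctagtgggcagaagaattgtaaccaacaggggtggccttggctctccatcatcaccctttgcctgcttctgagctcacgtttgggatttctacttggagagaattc
Sspn: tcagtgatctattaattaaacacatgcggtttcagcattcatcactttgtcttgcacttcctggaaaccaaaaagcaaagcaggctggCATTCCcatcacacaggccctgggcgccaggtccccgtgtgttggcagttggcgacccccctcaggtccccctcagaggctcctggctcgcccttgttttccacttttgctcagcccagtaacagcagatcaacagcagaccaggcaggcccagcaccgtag
Utrn: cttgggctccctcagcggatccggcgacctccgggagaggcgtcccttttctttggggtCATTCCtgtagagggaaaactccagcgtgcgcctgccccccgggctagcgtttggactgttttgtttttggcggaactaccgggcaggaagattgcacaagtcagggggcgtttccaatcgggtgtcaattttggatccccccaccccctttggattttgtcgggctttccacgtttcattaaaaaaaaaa
Dmd, upstream start: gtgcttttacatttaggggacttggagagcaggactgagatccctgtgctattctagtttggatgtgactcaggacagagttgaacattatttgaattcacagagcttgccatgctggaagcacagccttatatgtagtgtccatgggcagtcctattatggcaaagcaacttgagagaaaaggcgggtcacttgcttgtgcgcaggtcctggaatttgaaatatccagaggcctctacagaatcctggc
Dmd, downstream start: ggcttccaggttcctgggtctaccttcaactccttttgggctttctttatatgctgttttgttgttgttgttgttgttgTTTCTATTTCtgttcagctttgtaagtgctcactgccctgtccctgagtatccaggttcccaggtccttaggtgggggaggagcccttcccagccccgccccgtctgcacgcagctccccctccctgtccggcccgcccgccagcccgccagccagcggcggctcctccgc

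The TEAD letters occurred in 2 of the 9 member windows, those of Utrn and Sspn, as CATTCC on the strand shown, and in 12.1% of all 33469 windows of this length. The interferon element letters occurred in 2 overlapping windows of the downstream Dmd start, as TTTCTATTTC, which is 1 match seen in both windows, and in 3.41% of all windows. A steroid hormone response element (AGNACA, any 3 bases, TGTNCT), which reads the same on both strands, was in none of the 9 member windows and in 12 of the 33469 windows. Dag1 had no window, and those of Agrn and Sgcd lay before starts 35.3% and 58.5% along the gene. These counts of letters therefore do not cover every start of the members. The TEAD and interferon matches did not overlap each other. The deposited counts are summed over each gene, so the transcripts from the upstream and downstream Dmd starts, which encode long and short dystrophins, are not separated in the values below.

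Of the 8 members, 7 fell and Dmd alone rose with progesterone, all at an adjusted p under 0.05 in edgeR's quasi-likelihood test. The background was high, since 63.0% of all genes tested were called, 31.8% as lower and 31.2% as higher. In all 8 members the progesterone and control values did not overlap, as in 68.6% of genes tested, 34.8% with lower and 33.8% with higher progesterone values. The median log2 fold change was -0.41 over the members and 0.00 over all genes tested. The members were spread widely around that median, and Agrn had the lowest log2 fold change. Of all called genes 49.6% were higher with TMM scaling. Upper quartile scaling, under which that share was 60.1% and which moved the median of all genes to 0.10, kept the direction of all 8 members but not the calls of Utrn and Sgcb.

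**Figure D1:**
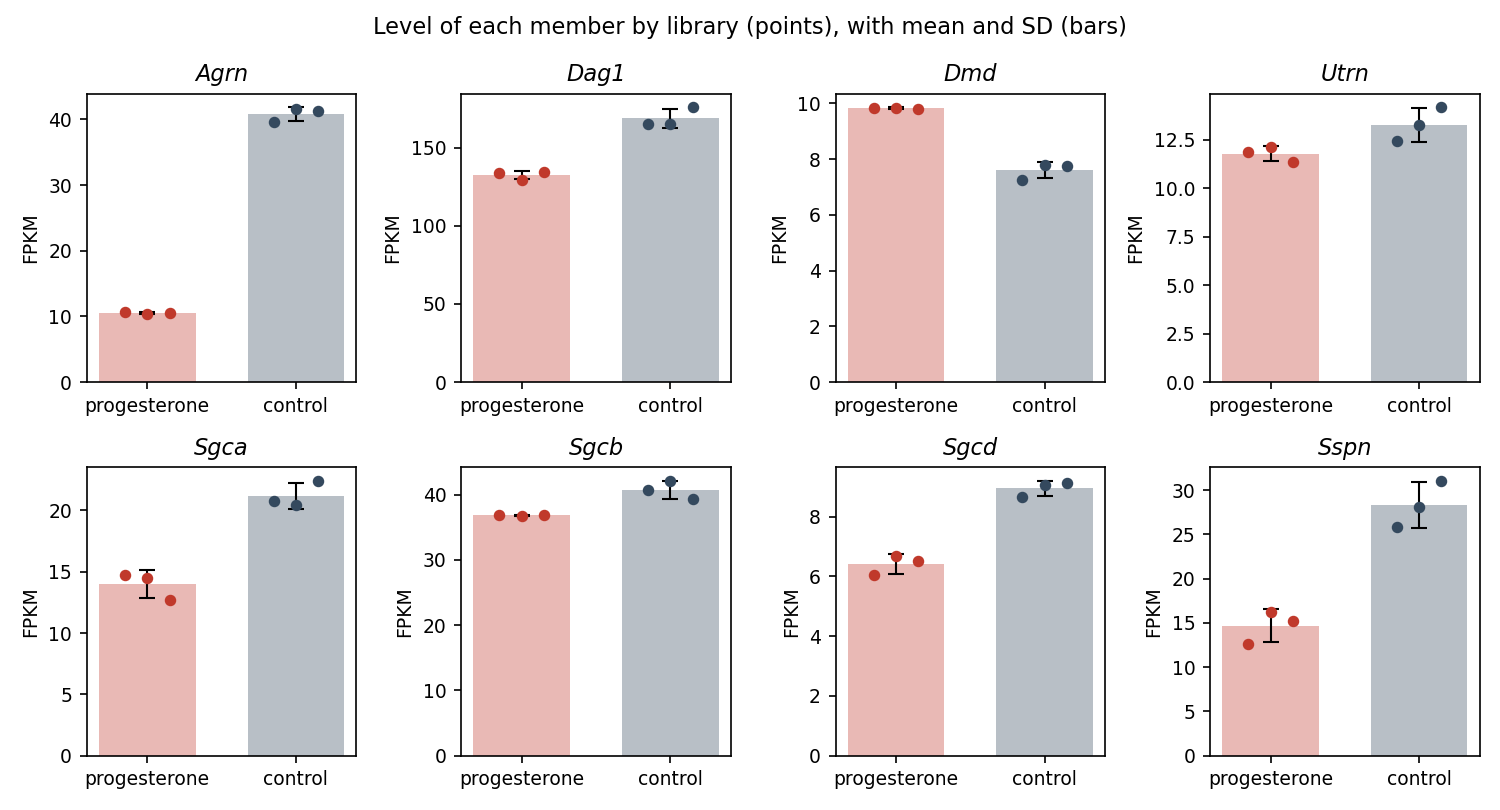
Level of each of the 8 genes in FPKM (fragments scaled by gene length and library total), with progesterone libraries on the left and control libraries on the right. Points are libraries, bars are means and error bars are SD (n = 3 each); Agrn averages 10.6 FPKM with progesterone and 40.8 FPKM in controls, and only Dmd is higher with progesterone.

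Agrn encodes agrin, a heparan sulphate proteoglycan of basement membranes that is a ligand of dystroglycan. Its level was 10.7, 10.4 and 10.6 FPKM in the progesterone libraries, against 39.6, 41.6 and 41.2 FPKM in the control libraries. The 3 progesterone libraries lay close together and far below every control library. In TMM-scaled counts (CPM), Agrn averaged 83.1 ± 1.03 CPM with progesterone and 320.3 ± 8.75 CPM in controls (SD, n = 3 each). It fell 3.85-fold, a log2 fold change of -1.95 ± 0.04 (SE; adjusted p = 2.2e-15 in edgeR's quasi-likelihood test), and 592 of the 15075 genes tested had a lower log2 fold change.

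The row of Agrn (ENSRNOG00000020205) lies on the minus strand of chromosome 5, from 173589819 to 173622645 in the table's coordinates, whose rat build is not named. Isg15, an interferon-induced gene for a ubiquitin-like protein, lies just upstream on the same strand (173624310 to 173626248), with 1664 bases between the gene models. Isg15 had 1.56, 1.32 and 1.82 CPM in the progesterone libraries, against 849.8, 812 and 709.5 CPM in the control libraries. It was the neighbour with the lowest log2 fold change, -8.97 ± 0.11 (SE; adjusted p = 1.7e-14, edgeR), so that Agrn and the gene before it were low in the same libraries. Among the 8 other tested genes within 100 kb of the Agrn start, 4 rose, 2 fell and 2 were not called, where 63.0% of all genes tested were called. The second that fell was Perm1, a muscle regulator of mitochondrial genes, at a log2 fold change of -0.78 ± 0.13 (SE; adjusted p = 0.00012, edgeR). Noc2l, a nucleolar protein gene further upstream, had a log2 fold change of 0.37 ± 0.05 (SE; adjusted p = 2.6e-05, edgeR). No source used here says whether counting used the strand, and the part of the Isg15 locus in the Agrn counts was not tested.

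**Figure D2:**
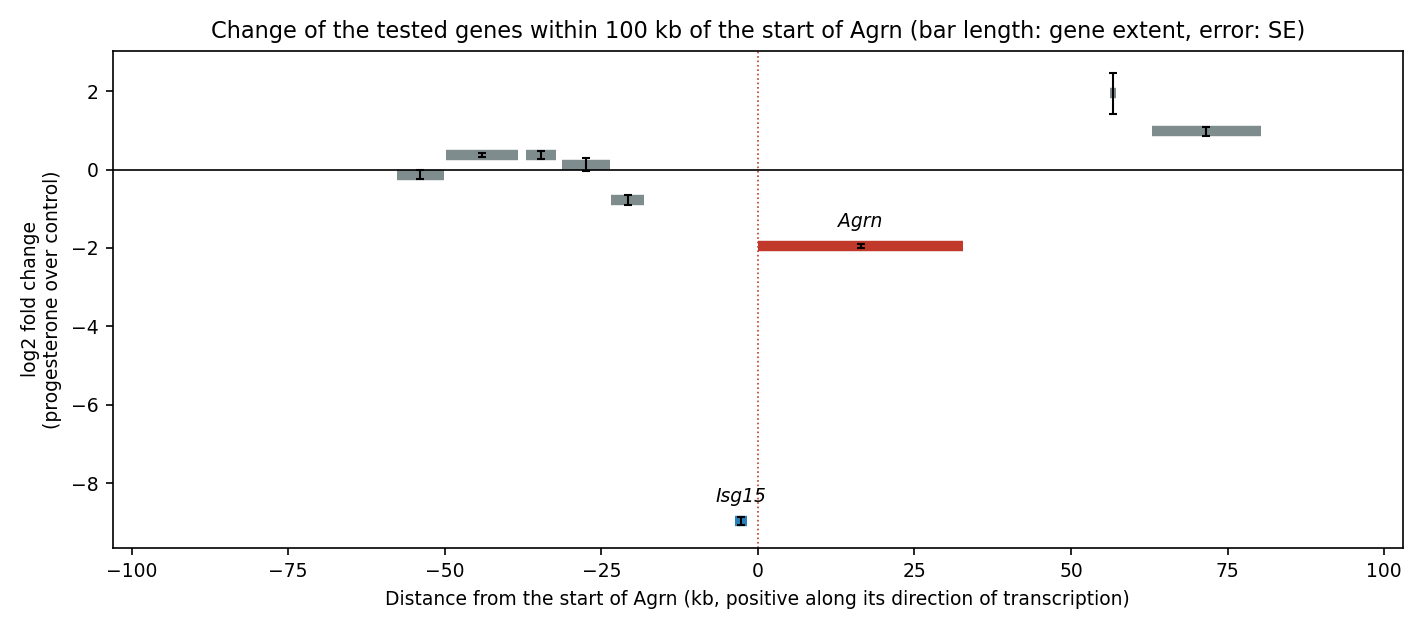
Fitted log2 fold change (progesterone over control, y axis) of every tested gene within 100 kb of the start of Agrn, against distance from that start in kb (x axis, positive along the direction of Agrn transcription). Horizontal bars span each gene and vertical bars are SE; Isg15 at -8.97 and Agrn at -1.95 are the lowest of the 9 genes.

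By the likeness of their profiles over the 6 libraries, the genes nearest to Agrn among 12595 genes searched were Prelp, Cd47 and Parp3. Likeness was the root mean square difference of log2 CPM after centring each gene on its own mean. Prelp, which encodes a leucine-rich matrix protein, differed by 0.0456 and averaged 37.1 CPM with progesterone and 146 CPM in controls. Cd47, which encodes a membrane protein that restrains phagocytosis, differed by 0.0510, and Parp3, a mono-ADP-ribosyltransferase gene, by 0.0524. With 3 libraries on each side, such nearness mostly reflects a like size of difference between the groups.

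Dag1 encodes dystroglycan, the matrix receptor of the complex, and had the highest level of the 8 genes in both groups. It was read at 133.7, 129.6 and 134.3 FPKM in the progesterone libraries, against 165.2, 164.8 and 175.8 FPKM in the control libraries. Every progesterone library was below every control library, by a smaller margin than for Agrn. The log2 fold change was -0.35 ± 0.04 (SE; adjusted p = 3.5e-06, edgeR), which is 1.27-fold lower. The Dag1 row (ENSRNOG00000019400) spans 116980497 to 116993193 on the minus strand of chromosome 8, and its nearest tested neighbours, Bsn and Nicn1, lie 15100 and 69690 bases away and were not called (adjusted p = 0.95 and 0.64, edgeR).

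The ligand fell by more than its receptor. Agrn FPKM divided by Dag1 FPKM was 0.0802, 0.0805 and 0.0787 in the progesterone libraries, against 0.24, 0.252 and 0.234 in the control libraries. The log2 ratio differed by -1.60, with no overlap between groups (exact two-sided permutation test, p = 0.1, the smallest that 3 against 3 libraries can give). This ratio within a library does not depend on library scaling.

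Dmd encodes dystrophin, the large link from dystroglycan to actin whose loss causes Duchenne muscular dystrophy. It was the only member that rose, with 9.85, 9.84 and 9.78 FPKM in the progesterone libraries, against 7.26, 7.78 and 7.75 FPKM in the control libraries. The progesterone values were nearly alike and all above the controls. The log2 fold change was 0.37 ± 0.04 (SE; adjusted p = 1.8e-06, edgeR), or 1.29-fold higher. Utrn, the paralogue that can take the place of dystrophin in muscle, had 11.9, 12.1 and 11.4 FPKM in the progesterone libraries, against 12.4, 13.2 and 14.2 FPKM in the control libraries. Its groups came close together, since the highest progesterone library was just under the lowest control library. The log2 fold change of Utrn was -0.17 ± 0.05 (SE; adjusted p = 0.0083, edgeR), and with upper quartile scaling it was -0.074 and no longer called (adjusted p = 0.21).

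Utrn stayed above Dmd per length in both groups, but by less with progesterone. The Utrn to Dmd ratio of FPKM was 1.20, 1.23 and 1.16 in the progesterone libraries, against 1.71, 1.70 and 1.83 in the control libraries. The log2 ratio was 0.26 ± 0.04 with progesterone and 0.80 ± 0.06 in controls (SD, n = 3 each), a difference of -0.54 (exact two-sided permutation test, p = 0.1, the smallest possible). The Dmd row (ENSRNOG00000046366) spans 51286737 to 53519259 on the plus strand of chromosome X, and the Utrn row (ENSRNOG00000011058) spans 6451810 to 6970040 on the minus strand of chromosome 1. Their FPKM values were divided by lengths of 13961 and 12734 bases, which are near full-length transcripts, so short products count for less than their molecules.

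**Figure D3:**
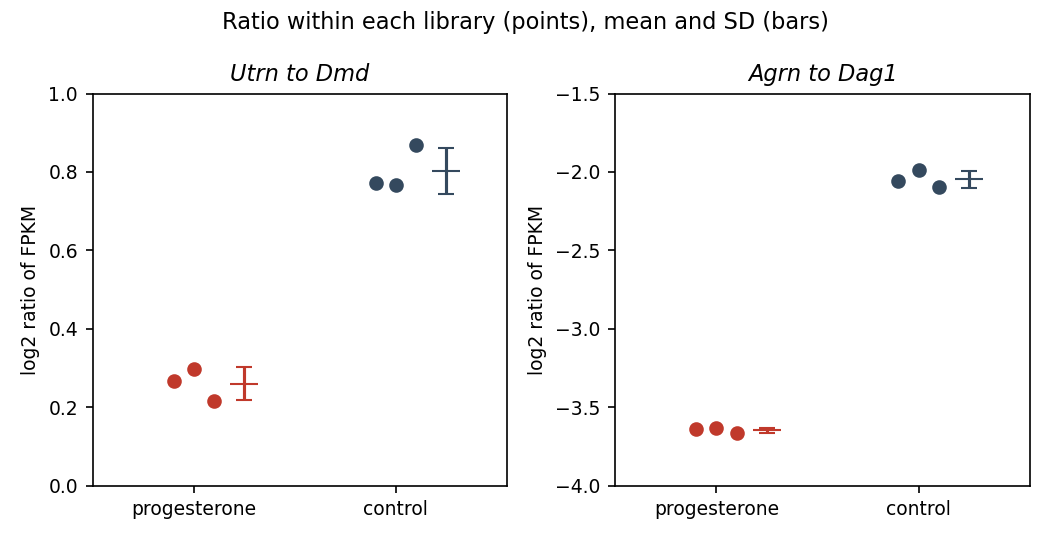
Log2 ratio of FPKM within each library for Utrn over Dmd and for Agrn over Dag1 (y axes, which do not share a scale), with progesterone libraries on the left and control libraries on the right. Points are libraries and bars are means with SD (n = 3 each); both ratios are lower in all 3 progesterone libraries, by 0.54 and 1.60 on the log2 scale.

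The sarcoglycans are transmembrane proteins that form a subcomplex beside dystroglycan, and loss of alpha, beta or delta sarcoglycan causes a limb-girdle muscular dystrophy. Sgca, for alpha-sarcoglycan, had 14.8, 14.5 and 12.7 FPKM in the progesterone libraries, against 20.8, 20.4 and 22.4 FPKM in the control libraries. It fell 1.52-fold, with a log2 fold change of -0.60 ± 0.07 (SE; adjusted p = 2.6e-06, edgeR), and the groups were well apart. Hils1, on the opposite strand inside the Sgca row (ENSRNOG00000003998, chromosome 10, 82770905 to 82785142), had 99, 75 and 110 counts with progesterone and 17, 16 and 11 counts in controls. Sgca itself had 529, 525 and 498 counts with progesterone and 894, 809 and 871 counts in controls, so the overlapping gene moved the other way. Whether counting used the strand is not known, and the part of Hils1 in the Sgca counts was not tested.

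Sgcd, for delta-sarcoglycan, was the lowest member with progesterone, at 6.04, 6.67 and 6.51 FPKM, against 8.65, 9.05 and 9.13 FPKM in the control libraries. It fell 1.39-fold (log2 fold change -0.48 ± 0.09, SE; adjusted p = 0.00028, edgeR), on 208 to 246 counts per progesterone library and 341 to 358 counts per control library. Sgcb, for beta-sarcoglycan, had 36.9, 36.7 and 36.8 FPKM in the progesterone libraries, against 40.8, 42.1 and 39.4 FPKM in the control libraries. The groups were separate but close. Its log2 fold change was -0.15 ± 0.04 (SE; adjusted p = 0.0066, edgeR), the smallest of the 8 in size, and with upper quartile scaling it was -0.049 and not called (adjusted p = 0.32). The Sgcd row (ENSRNOG00000002372) spans 32062946 to 32471454 on chromosome 10 and the Sgcb row (ENSRNOG00000002135) spans 37113210 to 37128737 on chromosome 14.

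Sspn encodes sarcospan, a tetraspan membrane protein held by the sarcoglycans. It had 12.7, 16.2 and 15.2 FPKM in the progesterone libraries, against 25.8, 28.1 and 31.1 FPKM in the control libraries. The replicates were the most spread of the 8 genes in both groups, with a coefficient of variation of 12.4% with progesterone and 9.25% in controls, but the groups were far apart. Sspn fell 1.92-fold, a log2 fold change of -0.94 ± 0.11 (SE; adjusted p = 0.00038, edgeR), the next after Agrn. Its row (ENSRNOG00000001807) spans 180291389 to 180324408 on the plus strand of chromosome 4. The gene with the profile nearest to Sspn was Slc16a12, a monocarboxylate transporter family gene, which differed by 0.0398 in root mean square.

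Levels per length put the members in a different order in the 2 groups. With progesterone the order of mean FPKM was Dag1 (133 ± 2.56), Sgcb (36.8 ± 0.109), Sspn (14.7 ± 1.83), Sgca (14.0 ± 1.14), Utrn (11.8 ± 0.381), Agrn (10.6 ± 0.145), Dmd (9.82 ± 0.0355) and Sgcd (6.41 ± 0.332). Only Sspn and Sgca overlapped there between neighbours. In controls the order was Dag1 (169 ± 6.23), Agrn (40.8 ± 1.03), Sgcb (40.8 ± 1.37), Sspn (28.3 ± 2.62), Sgca (21.2 ± 1.07), Utrn (13.3 ± 0.88), Sgcd (8.95 ± 0.258) and Dmd (7.60 ± 0.29), and only Agrn and Sgcb overlapped (SD, n = 3 each). Agrn thus stood beside Sgcb in controls and between Utrn and Dmd with progesterone.

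Among other genes of the dystrophin complex more fell than rose. Of 12 tested, from a list of 15, 7 fell, 1 rose and 4 were not called, with a median log2 fold change of -0.19. With upper quartile scaling 6 fell and 2 rose, with a median of -0.09. Over all genes tested 31.8% were called as lower and 31.2% as higher, the background for this list and those that follow. Ank2, an ankyrin adaptor gene, was 1.65-fold lower. Dtnb, for beta-dystrobrevin, had a log2 fold change of -0.51 ± 0.10 (SE; adjusted p = 0.00032, edgeR). Sntg2, for a syntrophin, had the lowest log2 fold change of the list, -1.34 ± 0.31, at 0.618 CPM with progesterone and 1.56 CPM in controls. Sntb1, for beta-1 syntrophin, was the one that rose, 1.19-fold, and Plec, for the cytolinker plectin, was at a log2 fold change of -0.03 ± 0.06 and not called.

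**Figure D4:**
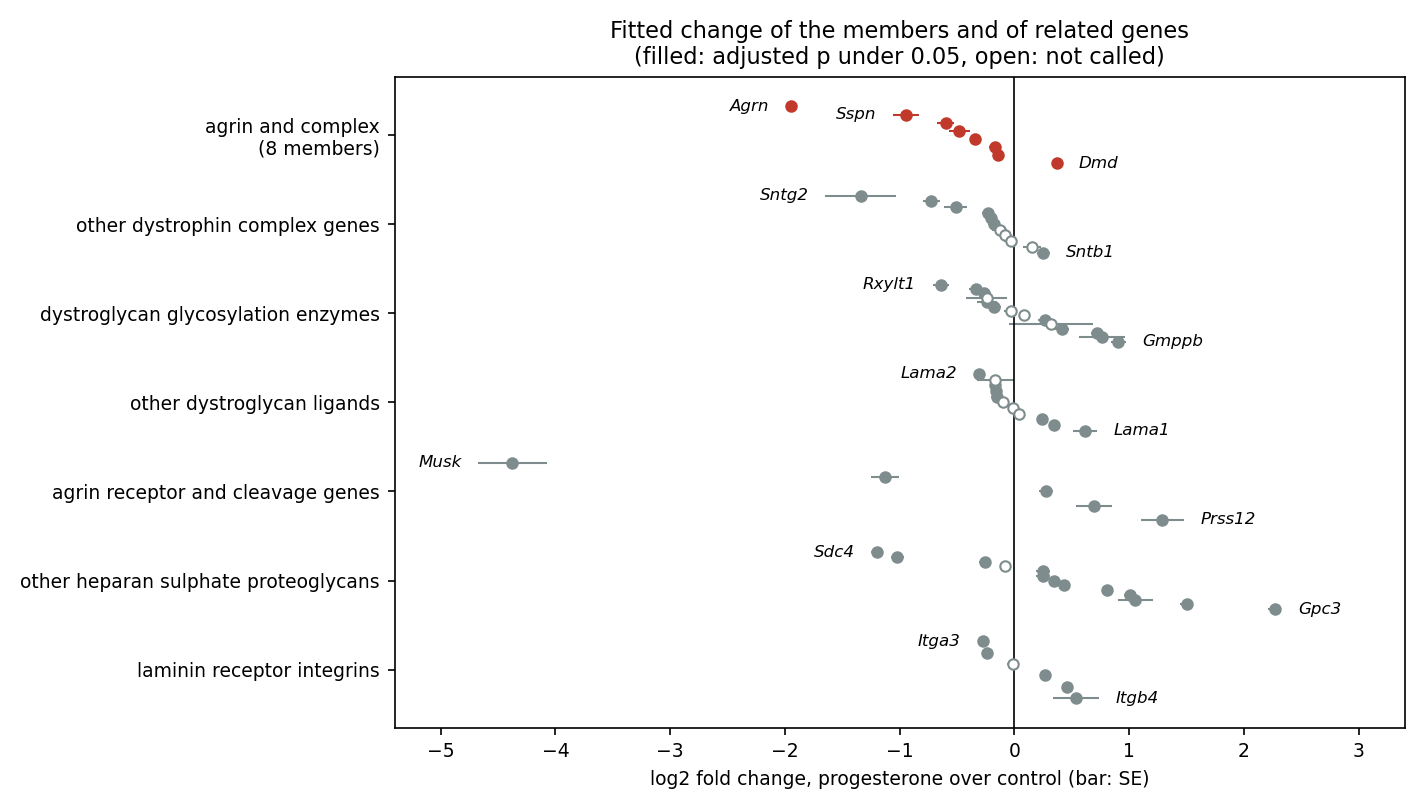
Fitted log2 fold change (progesterone over control, x axis) with SE for the 8 members, in red, and for genes of 6 related lists, in grey, 1 list per row, without those not reported here. Filled points are called at an adjusted p under 0.05 and open points are not. Agrn at -1.95 is the lowest member, while 9 of 13 other heparan sulphate proteoglycan genes are called as higher, against 31.2% of all genes tested.

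The enzymes that build the laminin- and agrin-binding sugar of dystroglycan moved both ways. Of 17 tested, 6 rose, 5 fell and 6 were not called, with a median log2 fold change of -0.03. That near-even split and the sign of the median depended on the method, with 7 higher, 3 lower and a median of 0.06 with upper quartile scaling, and 6 higher, 3 lower and a median of 0.02 by DESeq2, which also kept 1 more gene of the list. Gmppb, which makes GDP-mannose, rose 1.87-fold, Dpm3, for a subunit of dolichol-phosphate mannose synthase, rose 1.69-fold, and Pomt2, which starts the O-mannose chain, rose 1.65-fold. Rxylt1, a xylosyltransferase of the same chain, fell 1.56-fold.

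Genes for other ligands of dystroglycan, with laminin alpha, beta and gamma chains each counted, moved both ways, in shares that depended on the scaling. Of 12 tested, 4 rose, 4 fell and 4 were not called with TMM scaling (median log2 fold change -0.05), against 5 higher and 1 lower with upper quartile scaling (median 0.04). Lama2, for the laminin chain typical of muscle basement membrane, fell 1.24-fold, and Lamc1, for the common gamma-1 chain, rose 1.18-fold. Lama1, for the laminin alpha-1 chain, rose 1.53-fold, at 1.69 FPKM with progesterone and 1.11 FPKM in controls. Hspg2, for perlecan, rose 1.27-fold, to 1063 ± 27.8 CPM with progesterone, against 837 ± 47.3 CPM in controls. Agrin belongs to the heparan sulphate proteoglycans, of which 9 of the 13 others tested rose, 3 fell and 1 was not called (median 0.35). Gpc3 and Gpc6, for glypicans, rose 4.82-fold and 2.83-fold, and Gpc2, for another glypican, and Sdc2, for syndecan-2, rose 2.08-fold and 2.01-fold. Sdc4, for syndecan-4, and Tgfbr3, for betaglycan, fell 2.30-fold and 2.03-fold.

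Of 6 genes of agrin reception and cleavage tested, 4 were called as higher and 2 as lower, where 63.0% of all genes tested were called. Musk, for the receptor kinase through which agrin acts at the neuromuscular junction, fell 20.7-fold, to 0.244 ± 0.142 CPM with progesterone, against 5.17 ± 0.42 CPM in controls. Rapsn, for rapsyn, which clusters acetylcholine receptors, fell 2.18-fold. Lrp4, for the co-receptor that binds agrin at that junction, rose 1.21-fold, and Dok7, for the adaptor of MuSK, rose 1.62-fold. Prss12, for neurotrypsin, the protease that cleaves agrin, rose 2.44-fold, to 7.00 ± 0.457 CPM with progesterone, against 2.85 ± 0.787 CPM in controls. Of 6 laminin-binding integrin and related receptor genes, 3 rose, 2 fell and 1 was not called. By DESeq2, as in some fits with a single library left out, 2 were called as higher and 2 as lower. Itgb4 was 1.45-fold higher, Itga3 1.21-fold lower and Itga7, for the main muscle laminin integrin, 1.18-fold lower. Of 12 YAP, TEAD and target genes, 6 rose, 4 fell and 2 were not called, with a median log2 fold change of 0.17. Among those that rose, the targets Ccn2 and Ccn1 were 3.72-fold and 3.3-fold higher. Yap1 itself also rose, at a log2 fold change of 0.55 ± 0.06 (SE; adjusted p = 4.4e-07, edgeR). The 4 that fell are not named here, so the named genes do not stand for the list.

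The libraries held from 21156793 to 25376220 counts, and markers of several cell types moved between the groups beside these genes. Cardiomyocyte markers were present throughout, at a summed 4818 to 5272 FPKM with progesterone and 5603 to 5786 FPKM in controls, with 3 of 10 higher and 5 lower, or 3 higher and 2 lower with upper quartile scaling. Fibroblast markers summed to 9098 to 9736 FPKM with progesterone and 7432 to 7927 FPKM in controls, with 4 of 9 higher and 4 lower. Smooth muscle markers summed to 3362 to 3687 FPKM with progesterone and 1495 to 1828 FPKM in controls, with 9 of 10 higher and 1, Des, lower, which was not called with upper quartile scaling. Leukocyte markers, with Cd3e at 0 in every library, summed to 109.8 to 123.7 FPKM with progesterone and 20.4 to 32.4 FPKM in controls, with 5 of 6 tested higher and 1, Cd74, lower. Their median log2 fold change, 1.76, was the highest of these marker lists, and Lyz2, a macrophage lysozyme gene, gave most of the sum with progesterone, at a mean of 91.7 FPKM with progesterone and 5.91 FPKM in controls. Endothelial markers summed to 35.8 to 48.2 FPKM with progesterone and 50.8 to 65.2 FPKM in controls, with 2 of 9 higher and 4 lower. Schwann cell and neuron markers summed to 50.1 to 50.5 FPKM with progesterone and 50.2 to 65.5 FPKM in controls, with 2 of 7 higher and 2 lower. Skeletal muscle markers, with Myf5 at 0 in every library, summed to 49.9 to 59.0 FPKM with progesterone and 48.1 to 59.2 FPKM in controls, with 2 of 8 past the filter, of which 1 was higher. The part of these cell types in the member values was not tested, and in such bulk samples fewer cells of a type and less RNA per cell cannot be told apart. The labels call the replicates biological without naming cultures or animals, and p-values then speak only for the spread among these libraries, which may be technical.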

How the data were processed

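RNA-seq libraries, 3 with progesterone and 3 with vehicle, were grouped by their titles. The authors deposited whole-number counts per gene, and FPKM values per gene. Dividing counts by length and by the deposited FPKM gave 1 divisor for each library, within 1.57% of its count total. Per the submitters' processing notes, the tools include Bowtie 0.12.2 and mm8, which is a build of the mouse genome, while the identifiers in the table are rat Ensembl genes. The read counter and the rat build were not given in the sources used here. Of the 33565 rows, 682 lack a gene name and held 0.826% to 0.896% of counts per library. They were kept in the fit.

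The test was edgeR 4.0.16 (R 4.3.3) with TMM scaling and a robust quasi-likelihood fit, after filterByExpr at 10 counts and 15 in total. Adjustment was by Benjamini-Hochberg over all genes tested, with a threshold of 0.05. The script was run on simulated data in which most genes were left unchanged. In the real data 63.0% of genes tested were called, so the simulation does not cover scaling in that case. The biological coefficient of variation came to 9.04%, the SE was taken from the F statistic, and CPM values are TMM-scaled. Ratios of FPKM were compared by exact permutation (scipy 1.17.1). The members and gene lists were chosen with earlier results of these data known. All 8 members are named, with up to 4 called genes per direction of each list, those with the largest log2 fold change first, and further genes by their values. Genes with a profile like that of a member had a mean of at least 1 FPKM, a symbol and no library at 0. Some listed genes enter the counts but are not reported here by name. Hspg2 was matched through its RefSeq synonym. Replicates differed beyond sampling noise, at a chi-square of 5.67 to 9.88 per degree of freedom, and none was treated as a duplicate.

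Alternative settings were 3 other scalings (RLE, upper quartile, library size), no filter, at least 1 CPM in 3 libraries, each library left out in turn, a block for the replicate number, DESeq2 1.42.0, and limma 3.58.1 on log2(FPKM + 1) and log2(FPKM + 0.1). For the FPKM ratios they were counts, a pseudocount of 1, the left-out libraries and the block.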

Additional observations from a re-analysis of the deposited data

How the results depend on the processing

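Each member was refitted under 15 alternatives. All 120 refits kept the direction, and 118 of them also kept the call. The 2 exceptions, both under upper quartile scaling, were Utrn at -0.074 (adjusted p = 0.21) and Sgcb at -0.049 (adjusted p = 0.32). Agrn ranged from -1.97 to -1.85, Sspn from -1.02 to -0.85 and Dmd from 0.33 to 0.47. Leaving out each library in turn kept all 8 members called, though Utrn and Sgcb only narrowly in some fits. The adjusted p (edgeR) was 0.0496 for Utrn without progesterone replicate 3 and 0.0423 for Sgcb without control replicate 2. With a pseudocount of 1 FPKM, which by construction shrinks the ratio of low genes, the Utrn to Dmd difference was -0.49 and the Agrn to Dag1 difference -1.51. Upper quartile scaling called 5 cardiomyocyte markers, against 8 with TMM scaling, and 2 skeletal muscle markers were called without a filter and by DESeq2, against 1, where more genes were tested.

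Libraries with the same replicate number shared little deviation over all genes tested (correlations of 0.0758, 0.0232 and 0.0141). Not every library was closest to its own number. Noise in genes with few counts lowers such correlations, so they cannot settle whether the numbers pair the libraries. With the replicate number as a block, 9508 genes and all 8 members were called, against 9497 genes and 8 members without it. The Utrn to Dmd and Agrn to Dag1 differences by replicate block were -0.54 and -1.60. Sgcd, with 208 to 358 counts per library, was the least deeply read member.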

Other observations

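Beyond Agrn and Sspn, the tested genes with the profiles nearest to the other members were as follows. Nearest to Dag1 was Phospho2, at a root mean square difference of 0.0178, followed by Ext2, a polymerase of heparan sulphate chains, at 0.0181, and Wwc2, a Hippo pathway adaptor gene, at 0.0186. Nearest to Dmd was Dctd, for dCMP deaminase, at 0.0125, and nearest to Utrn was Fam168a, at 0.0185. Nearest to Sgca was Sec14l2, at 0.0441, to Sgcb Rfx5, an MHC class II regulator gene, at 0.0158, and to Sgcd Sat2, at 0.0205. Ext2 had a log2 fold change of -0.37 (adjusted p = 1e-06, edgeR), beside -0.35 for Dag1. In this list genes beyond the nearest are named only for Dag1. As for Agrn, such nearness mostly reflects a like size of difference between the groups.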
